A study of Danio rerio with 4 samples.

Results

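A set of 10 genes of the early transcriptional and stress response were followed through dissociated zebrafish calvaria, the flat bones and soft tissue of the skull roof. They are *fosab*, *fosb*, *jun*, *junba*, *junbb*, *egr1*, *ier2b*, *atf3*, *socs3a* and *hsp70l*, found by symbol among the 39988 genes counted, so that all 10 had values. The question was whether the level of these genes followed the library, and with it the dissociation, or the kind of cell.

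Immediate early genes are transcribed within minutes of a stimulus, without new protein synthesis, from promoters already in place. The Fos and Jun proteins pair to form AP-1, Egr1 is a zinc finger activator, Atf3 belongs to the wider ATF family and is induced by stress, Socs3a is a feedback inhibitor of cytokine signalling induced by STAT3, and Hsp70l is a heat-inducible chaperone. Enzymatic dissociation of tissue is itself known to induce such genes, so that in dissociated cells their level holds both what the tissue expressed and what was made during handling, and no undissociated sample was analysed here.

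There were 4 libraries, prepared with a 3' droplet kit, each from pooled fish, so that a library and not a fish was the replicate. Adult replicate 1 came from 10 adults of 22-25 mm carrying the epithelial reporter *cdh1:mlanYFP*, with YFP+ cells removed by sorting. Adult replicate 2 came from 10 adults of 22-25 mm of the Tubingen strain, with no reporter gate. Juvenile replicate 1 came from 20 fish of 9-11 mm with the same *cdh1:mlanYFP* gate, and juvenile replicate 2 from 20 fish of 9-11 mm carrying *sp7:GFP*, an osteoblast reporter, with GFP+ cells removed. The strain label of every library was Tubingen, and every library was dissociated with trypsin, EDTA and collagenase and sorted for cells that excluded DAPI. Only the YFP gate occurred at both stages, and for the other 2 libraries stage and gate cannot be told apart.

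After filtering, 2072 and 2994 adult cells and 8313 and 7932 juvenile cells remained, with medians of 2815 and 1928.5 UMIs per cell in the adult libraries and 1878 and 2063.5 in the juvenile libraries. Cells were sorted into kinds by lists of marker genes that held none of the 10 genes, and 80.8% and 73.0% of adult cells and 55.2% and 60.1% of juvenile cells received a kind. Levels are UMIs of a gene per 1000000 UMIs of all cells of a kind in a library, called CPM below, and are given in the order replicate 1, replicate 2 of a stage for the 19 kinds with at least 20 cells in a library. Mesenchyme, dermal fibroblasts, epithelial cells and meningeal mesenchyme had at least 20 cells in all 4 libraries. Their smallest numbers of cells in a library were 413, 262, 31 and 30. Between 14 and 104 cell barcodes were shared by a pair of libraries.

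In mesenchyme, *fosab*, the zebrafish c-Fos gene, stood at 13326 and 6405 CPM in the adult libraries and at 8095 and 8614 CPM in the juvenile libraries. The adult libraries enclosed the juvenile ones, so that the stages overlapped. At least 1 UMI of *fosab* was found in 98.3% and 95.9% of adult mesenchyme cells and in 98.1% and 96.1% of juvenile mesenchyme cells. A UMI of *fosb*, another Fos gene, was found in 92.8% and 83.5% of adult and 74.7% and 62.2% of juvenile mesenchyme cells. It stood at 3111 and 2144 CPM in adult mesenchyme and at 1476 and 1489 CPM in juvenile mesenchyme. Here both adult libraries were higher, although the difference of 1.14 on the log2 scale (SE 0.43) missed the threshold (adjusted p = 0.252, quasi-likelihood F test in edgeR, adjusted by Benjamini-Hochberg across every gene tested).

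Such shares need a background, since RNA set free by broken cells enters every droplet. Red blood cells of juvenile replicate 1, which should transcribe few of these genes, had the lowest summed level of the 10 genes, 908 CPM (95% Poisson interval 860 to 959), against 19958 CPM (19725 to 20194) in mesenchyme of the same library. *fosab* had a UMI in 48.5% of these red blood cells (exact 95% interval 43.6 to 53.3), at a median depth of 3014 UMIs, and in 98.1% of mesenchyme cells at a median of 2446 UMIs. With every cell thinned to 1000 UMIs the shares were 25.1% in red blood cells and 95.1% in mesenchyme. For *junbb* the thinned shares were 0.948% and 19.2%, and for *hsp70l* 1.42% and 6.54%. The mesenchyme shares were above this background for these 3 genes, and the intervals cover counting error only.

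Across the 14 kinds present in both juvenile libraries, *fosab* ranged over 4.62 log2 units. It was highest in meningeal mesenchyme, with 11324 and 13050 CPM, followed by mesenchyme. Myelinating glia had 9552 and 5654 CPM, radial glia 7612 and 5871 CPM and hair cells, the mechanosensory cells of neuromasts and the ear, 4568 and 9739 CPM. Mesenchyme, these glia and hair cells overlapped their neighbours in the order, and 8 of 13 neighbouring pairs of kinds overlapped in all. Dermal fibroblasts had 5498 and 4608 CPM, epithelial cells 3858 and 3407 CPM and cartilage cells 2220 and 2517 CPM, each apart from the next. Neurons had 1621 and 1227 CPM. The lowest group held macrophages, T cells, thymocytes and neutrophils, the last with 647 and 362 CPM, and no member of that group was separated from its neighbour.

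The order for *fosb* was similar in its ends but not in its middle. Myelinating glia led it, with 2865 and 2160 CPM, and overlapped meningeal mesenchyme, with 1475 and 2396 CPM. Radial glia, high in *fosab*, had 969 and 356 CPM of *fosb*, in the range of macrophages with 702 and 392 CPM. Neutrophils were again lowest, with 135 and 37.2 CPM.

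**Figure D1:**
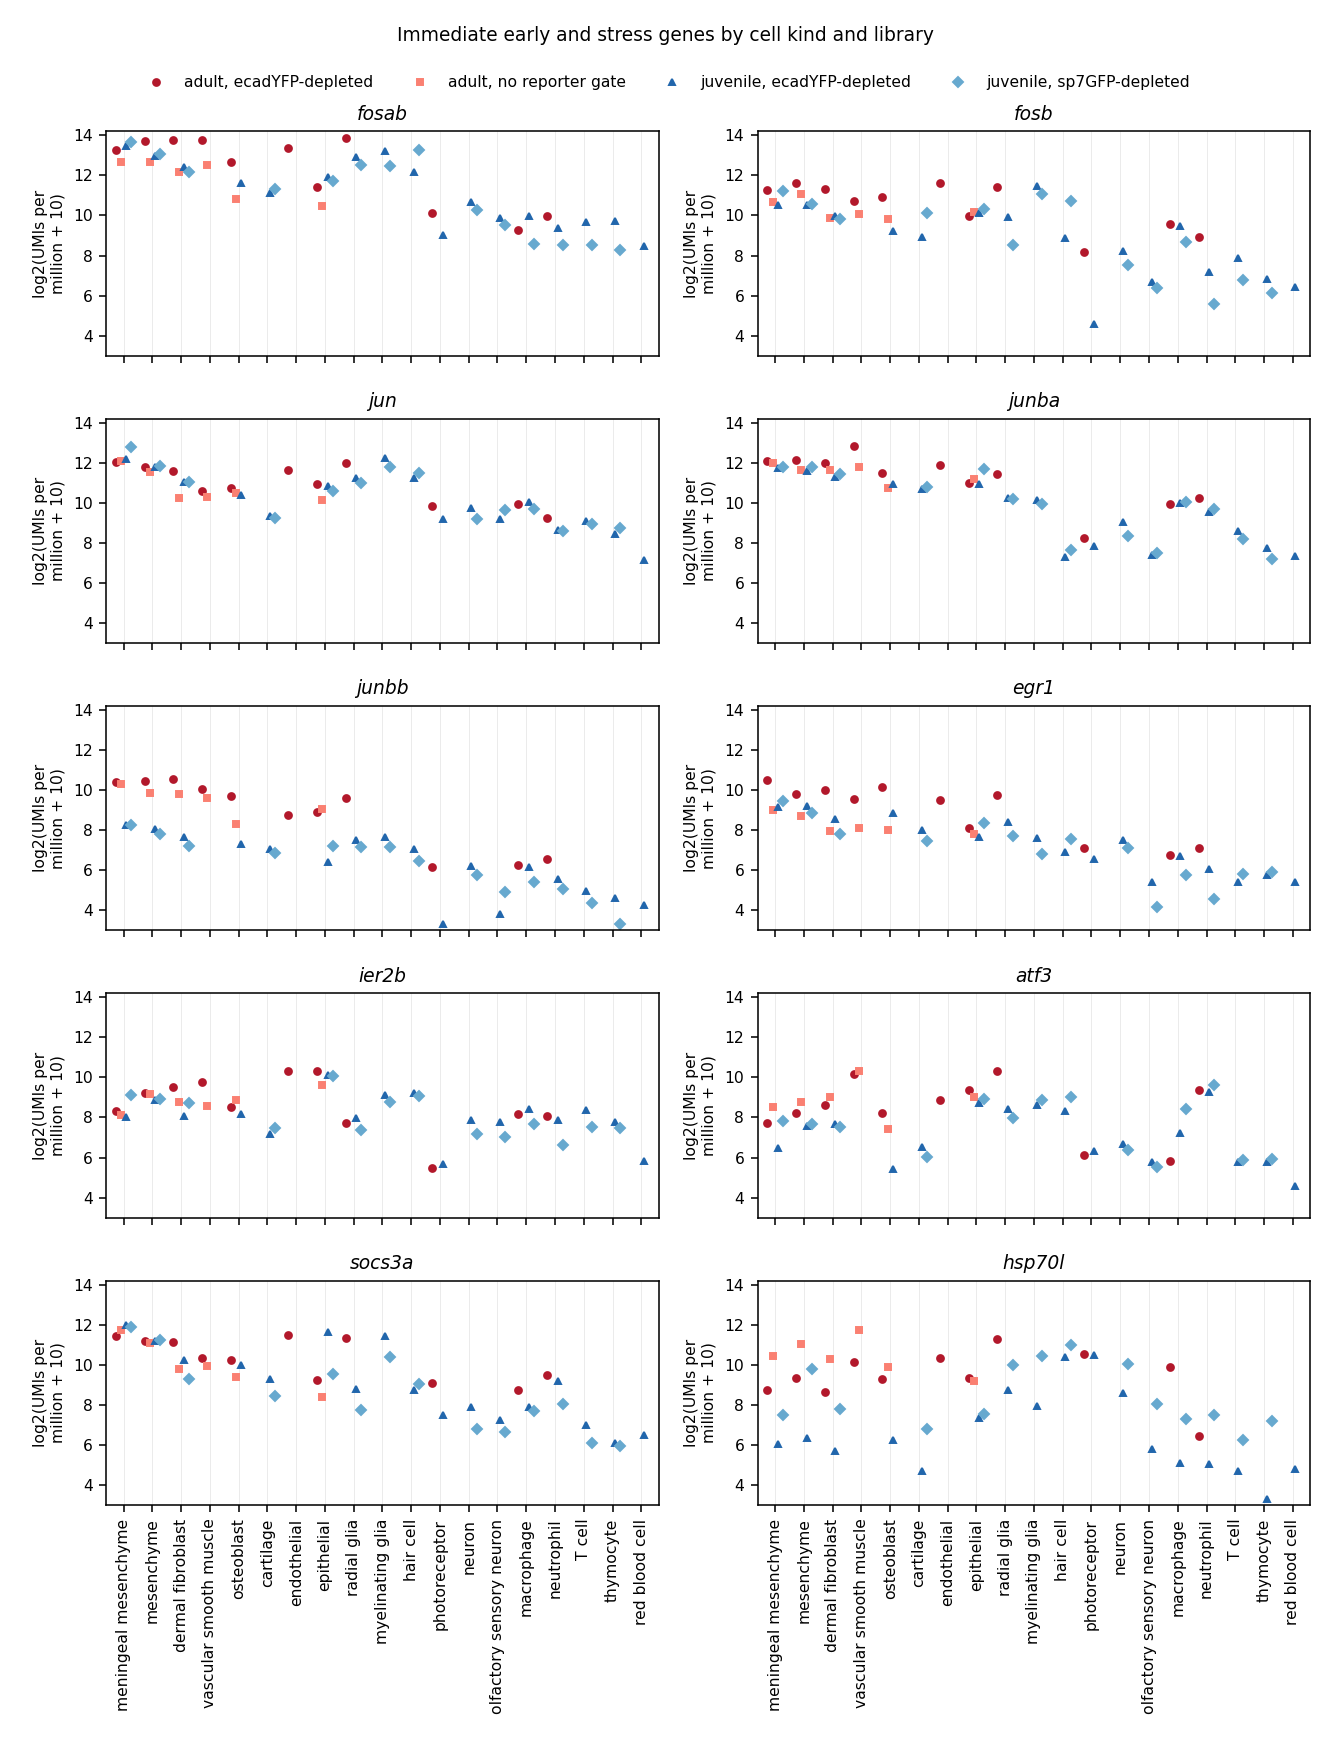
Level of each of the 10 genes, as log2(CPM + 10), in every cell kind with at least 20 cells in a library, with 1 point per library (adult in red tones, juvenile in blue tones). The adult points of *junbb* lie above the juvenile points in the connective kinds and the points of *hsp70l* are spread by library, with juvenile replicate 1 low in most kinds.

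The Jun genes encode the partners of Fos, and their kind patterns differed from one another. *jun* stood at 3500 and 2958 CPM in adult mesenchyme and at 3493 and 3614 CPM in juvenile mesenchyme, a span narrower than that of *fosab*. *junba*, one of the JunB copies of zebrafish, stood at 4555 and 3222 CPM in adult and 3013 and 3505 CPM in juvenile mesenchyme. Both genes overlapped between stages. In the juvenile libraries *jun* was highest in meningeal mesenchyme, with 4573 and 6930 CPM, and lowest in thymocytes, with 338 and 422 CPM. *junba* was highest in meningeal mesenchyme, with 3438 and 3487 CPM, and lowest in olfactory sensory neurons, with 158 and 167 CPM.

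Hair cells separated these genes most clearly. They held *fosab* and *jun* at connective levels, with 2372 and 2897 CPM of *jun* in the juvenile libraries, but only 149 and 192 CPM of *junba*. Expressed as *junba* UMIs per 100 *jun* UMIs, a ratio of molecule counts within the same cells, hair cells had 6.29 and 6.61. Myelinating glia had 23.9 and 27.4, olfactory sensory neurons 27.7 and 21.6 and neurons 61.0 and 56.5. Cartilage cells had 257 and 304, and vascular smooth muscle of the adult libraries 473 and 279. The hair cell ratio lay below that of every other kind and library. It rested on 11 and 17 UMIs of *junba* in 25 cells of each library. Red blood cells of juvenile replicate 1 had 115. The part of free RNA in the hair cell ratio was not tested. The ratio was also not fixed within a kind, since dermal fibroblasts had 133 and 262 in the adult libraries against 119 and 133 in the juvenile libraries.

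**Figure D2:**
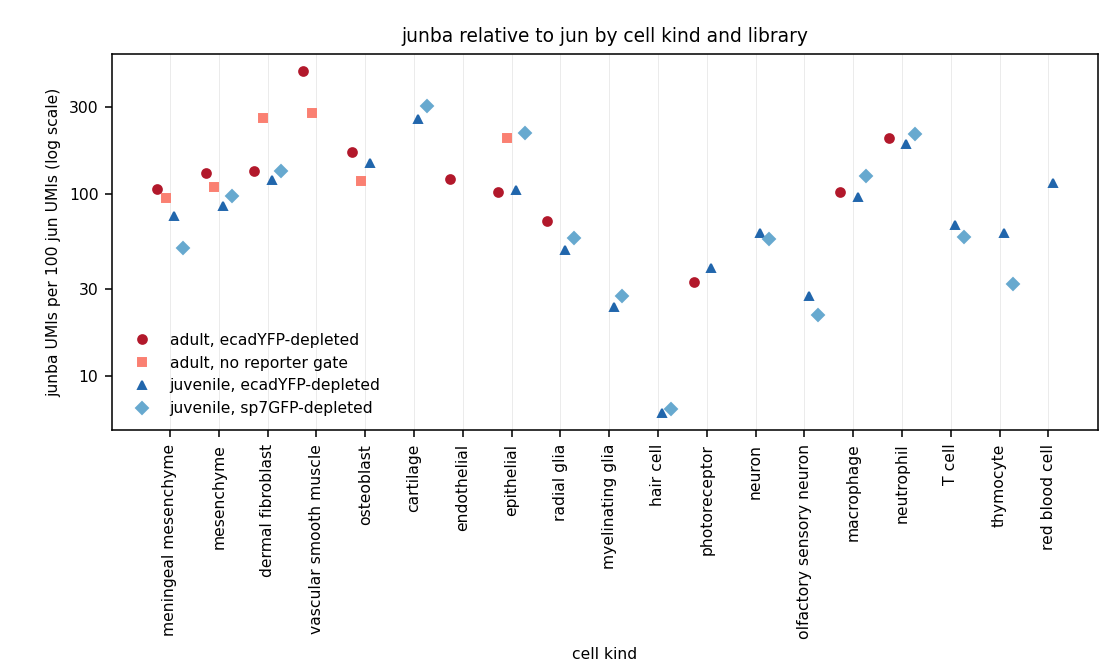
UMIs of *junba* per 100 UMIs of *jun* on a log scale, by cell kind, with 1 point per library (adult in red tones, juvenile in blue tones). Hair cells, at 6.29 and 6.61, lie below all other kinds, and vascular smooth muscle and cartilage, at 257 to 473, are at the upper end.

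In the juvenile libraries *egr1* and *socs3a*, like *fosab*, ranked highest in meningeal mesenchyme and next in mesenchyme. Below these, glia and epithelial cells were mixed with dermal fibroblasts. For *socs3a* myelinating glia had 2738 and 1311 CPM and dermal fibroblasts 1178 and 620 CPM. *egr1* stood at 889.8 and 402 CPM in adult mesenchyme and at 572 and 446 CPM in juvenile mesenchyme, with the stages overlapping. In the juvenile libraries it was highest in meningeal mesenchyme, with 567 and 702 CPM, and lowest in olfactory sensory neurons, with 33.2 and 8.16 CPM, and 11 of 13 neighbouring kinds overlapped. *socs3a* stood at 2294 and 2185 CPM in adult and at 2347 and 2394 CPM in juvenile mesenchyme, the narrowest span of the 10 genes there in CPM relative to its level. It had the widest range between juvenile kinds, 5.92 log2 units, with 4005 and 3810 CPM in meningeal mesenchyme and 58.8 and 50.6 CPM in thymocytes.

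Epithelial *socs3a* was carried by 1 library. It stood at 598 and 323 CPM in the adult libraries and at 3174 and 720 CPM in the juvenile libraries. The high value came from juvenile replicate 1, whose 36 epithelial cells had a median of only 1005.5 UMIs and were those left after the YFP gate, and 83.3% of them had a UMI of *socs3a*. The part of depth and gate in this value was not tested.

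*ier2b*, an immediate early gene of the Ier family, and *atf3* were not highest in meningeal mesenchyme or mesenchyme. Among the 4 kinds found in all libraries *ier2b* was highest in epithelial cells, with 1252 and 764 CPM in the adult libraries and 1083 and 1063 CPM in the juvenile libraries. In mesenchyme it stood at 582 and 567 CPM in the adult and 456 and 479 CPM in the juvenile libraries, below epithelial cells in each library. In the juvenile libraries the epithelial level was apart from that of hair cells, next in order with 596 and 530 CPM, and the 12 other neighbouring pairs overlapped. Endothelial cells, with 31 cells in adult replicate 1 alone, had 1262 CPM.

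*atf3* was highest among juvenile kinds in neutrophils, with 600.5 and 777 CPM, where *fosab* was lowest. Adult replicate 1 had 641 CPM of *atf3* in neutrophils. Epithelial cells followed, with 654 and 509 CPM in the adult and 418 and 468 CPM in the juvenile libraries. Vascular smooth muscle, the contractile cells of vessel walls, had 1125 and 1248 CPM in the adult libraries. Radial glia of adult replicate 1 had 1262 CPM, of which 1 of 22 cells gave 29.6%. In mesenchyme *atf3* stood at 291 and 434 CPM in the adult and at 183.5 and 196 CPM in the juvenile libraries.

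*hsp70l* had an order of its own. In the juvenile libraries hair cells had 1315 and 2040 CPM, apart from radial glia with 418.5 and 1015 CPM and neurons with 378 and 1056 CPM. Photoreceptors had 1481 CPM in adult replicate 1 and 1435 CPM in juvenile replicate 1, where 1 of 46 cells gave 43.7% of the UMIs. Thymocytes had no UMI in juvenile replicate 1, which allows up to 44.1 CPM, and 135 CPM in juvenile replicate 2, where 1 of 24 cells gave 75% of the UMIs. In mesenchyme the level was 642 and 2057 CPM in the adult and 72.1 and 862 CPM in the juvenile libraries. The stages overlapped, with adult replicate 2 highest and juvenile replicate 1 lowest. The counts of *hsp70l* are uncertain, because zebrafish hold near-identical hsp70 copies between which short reads cannot always be placed.

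To weigh kind against library, the UMIs of the 4 kinds complete in all libraries were summed per kind and library and fitted with both terms in edgeR. At an adjusted p under 0.05, 8 of 10 genes differed between kinds, where 31.0% of the 10043 genes tested did. Between libraries 3 of 10 differed, where 28.7% did, a count near the background and no result about the 10 genes as a set. The kind test was passed by *fosab* (adjusted p = 0.00047), *ier2b* (0.00206), *socs3a* (0.00251), *jun* (0.0026), *atf3* (0.00708), *hsp70l* (0.00807), *junbb* (0.0264) and *egr1* (0.0431). The call of *hsp70l* was lost without juvenile replicate 2 (0.285) and with DESeq2 (0.116). Those of *junbb* and *egr1* were lost without adult replicate 1 (0.246 and 0.235), adult replicate 2 (0.138 and 0.169) or juvenile replicate 1 (0.142 and 0.202). The test was not passed by *fosb* (0.131) or *junba* (0.187). The library test was passed by *hsp70l* (1.15e-09), *junbb* (1.28e-07) and *atf3* (0.00101), the last of which lost the call without adult replicate 2 (0.267). These adjusted p are from edgeR's quasi-likelihood test. All kinds of a library share its dissociation and its free RNA, so the library test compares these 4 libraries and not the stages.

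Epithelial cells were 1 pole of the difference between kinds. In the YFP-gated libraries they were the 31 cells (adult replicate 1) and 36 cells (juvenile replicate 1) left after the gate. Relative to the mean of the 4 kinds in the same library, on the log2(CPM + 10) scale, epithelial *fosab* was lower in 4 of 4 libraries (mean -1.21, SD 0.42, n = 4 libraries), as was *jun* (-0.77, SD 0.18). *ier2b* (0.96, SD 0.27) and *atf3* (0.78, SD 0.41) were higher there in 4 of 4 libraries. Meningeal mesenchyme was the other pole, with *fosab* (0.67, SD 0.33), *jun* (0.86, SD 0.35) and *egr1* (0.74, SD 0.18) higher and *ier2b* (-0.66, SD 0.41) and *atf3* (-0.60, SD 0.44) lower in 4 of 4 libraries. Without the epithelial cells only *hsp70l* (adjusted p = 0.00138, edgeR), *atf3* (0.00349) and *ier2b* (0.00419) still differed between the 3 connective kinds, 3 of 10 genes where 11.2% of genes tested did, and *fosab* no longer did (0.713). Between libraries 5 of 10 then differed, where 40.8% of genes tested did, a count near the background. The added ones were *egr1* (5.89e-05, edgeR) and *fosb* (0.00588). The shares of all genes moved too, from 31.0% to 11.2% for kind and from 28.7% to 40.8% for library. The moved counts are therefore not read as a change in the 10 genes. Without adult replicate 2 the 4 kinds gave 3 genes, and *jun* (0.107), *ier2b* (0.0508) and *socs3a* (0.13) were also lost.

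In a wider fit of the 17 kinds found in at least 2 libraries, all 10 genes differed between kinds, but so did 87.1% of all genes, and a count this near the background is no result about these genes. In that fit 7 of 10 differed between libraries, where 39.0% of genes did. The 3 that did not pass were *jun* (adjusted p = 0.414, edgeR), *ier2b* (0.209) and *junba* (0.0786). Within the juvenile libraries alone, 10 of 10 genes differed between the 14 kinds, where 87.0% of genes did.

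The share of variation gave the same contrast as a description. Of the sums of squares of log2(CPM + 10) over 4 kinds and 4 libraries, kind took 79.5% for *jun* and library 10.5%, and kind took 67.6% for *fosab* and library 17.8%. For *ier2b* the shares were 72.2% and 10.7%, and for *socs3a* 58.3% and 12.2%. Without the epithelial cells *jun* (adjusted p = 0.312, edgeR), *fosab* (0.713) and *socs3a* (0.0602) did not pass the kind test, while *ier2b* did (0.00419). Shares without these cells are not given. For *junbb* the order turned, with 16.3% for kind and 80.1% for library, and 79.3% lay between the stages. *hsp70l* had 6.7% for kind and 81.5% for library, of which 57.4% of the total lay between the stages. Library exceeded kind for these 2 of the 10 genes, while it did so for 52.3% of genes tested, whose median shares were 24.5% for kind and 26.1% for library. The median remainder of genes tested was 38.3%, against 3.6% to 29.9% for the 10 genes. The genes tested were not matched to the 10 in level, so the contrast with 52.3% is a description only. Over the 14 juvenile kinds, kind took 85.5% to 98.6% for the 9 other genes and 69.1% for *hsp70l*, whose library share was 25.1%. The median gene tested there had 84.3% for kind, and kind exceeded library for 99.5% of genes, so the larger kind share of the 10 genes is no result about them.

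**Figure D3:**
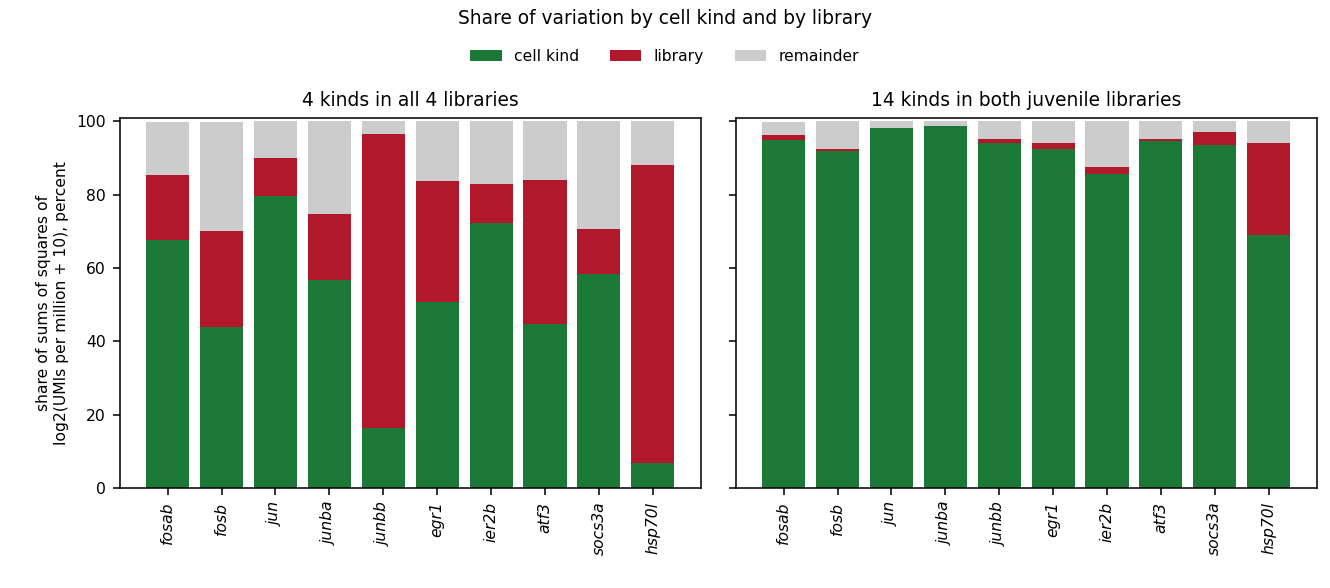
Share of the sums of squares of log2(CPM + 10) taken by cell kind, library and the remainder, in percent, for the 4 kinds in all 4 libraries (left) and the 14 kinds in both juvenile libraries (right). At left the library share is 80.1% for *junbb* and 81.5% for *hsp70l*, and at right kind takes the larger share for all 10 genes, as it does for 99.5% of genes tested.

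*junbb*, the other JunB copy, was higher in the adult libraries in each complete kind. In mesenchyme it stood at 1376 and 904 CPM in the adult libraries and at 252 and 217 CPM in the juvenile libraries. Every adult library was above every juvenile one, and the difference of 2.58 on the log2 scale (SE 0.47) passed the test (adjusted p = 0.0257, edgeR's quasi-likelihood test). It was 1 of 70 genes called higher in adult mesenchyme, 0.946% of those tested, while 0.892% were called lower. The call was lost without juvenile replicate 1 (difference 2.80) and without juvenile replicate 2 (2.43), each of which left 1 juvenile library.

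In the other complete kinds *junbb* was separated in the same direction without passing the edgeR test. DESeq2 called it in dermal fibroblasts (adjusted p = 3.65e-05) and meningeal mesenchyme (0.0229), and edgeR with no filter on low counts called it in dermal fibroblasts (0.000977). Either setting called 5 pairs of gene and kind in place of 1. Dermal fibroblasts had 1473 and 892 CPM in the adult and 193 and 136 CPM in the juvenile libraries (difference 2.90, SE 0.54, adjusted p = 0.102, edgeR). Meningeal mesenchyme had 1338 and 1237 CPM in the adult and 295 and 291 CPM in the juvenile libraries (2.00, SE 0.44, adjusted p = 0.25, edgeR). Epithelial cells had 474 and 519 CPM in the adult and 76.0 and 140 CPM in the juvenile libraries (2.10, SE 0.75, adjusted p = 0.728, edgeR). The value of 76.0 CPM rested on 4 UMIs (95% Poisson interval 20.7 to 194.6). In both adult libraries *junbb* was thus above both juvenile libraries in 4 of 4 kinds. Taken 1 kind at a time, 10.9% of genes tested were so separated in mesenchyme and 16.9% in dermal fibroblasts. The shares were 26.3% in meningeal mesenchyme and 19.1% in epithelial cells. The share of genes separated in all 4 kinds at once is not given, and the kinds share the same libraries. Within the YFP gate alone, *junbb* was higher in adult replicate 1 than in juvenile replicate 1 in 9 of 9 shared kinds, with a median difference of 2.38. This was not particular to *junbb*. *hsp70l* (median 2.66) and *egr1* (1.06) were also higher in 9 of 9 kinds, *fosb* and *junba* in 8 of 9, and the others in 6 or 7 of 9. For *junbb* the smallest difference was in macrophages, 0.12, with 24 UMIs against 20. In juvenile replicate 1, photoreceptors had 0 UMIs of *junbb*, epithelial cells 4 and neutrophils 8. The share of all genes higher in 9 of 9 kinds is not given. Macrophages had 67.4 CPM in adult replicate 1, against 61.3 and 32.7 CPM in the juvenile libraries.

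The stage difference of *junbb* was larger than that of *junba*, 2.58 against 0.58 on the log2 scale in mesenchyme. *junba* was also above in both adult libraries in dermal fibroblasts (16.9% of genes tested) and meningeal mesenchyme (26.3%). It overlapped in mesenchyme and epithelial cells. Per 100 UMIs of *junba*, mesenchyme had 30.2 and 28.1 UMIs of *junbb* in the adult libraries and 8.36 and 6.20 in the juvenile libraries. In dermal fibroblasts the values were 36.5 and 28.6 in the adult and 7.84 and 4.89 in the juvenile libraries. In osteoblasts, which the GFP gate removed from juvenile replicate 2, they were 29.2 and 17.8 in the adult libraries and 7.68 in juvenile replicate 1.

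*hsp70l* was uneven within each stage as well as between them. Averaged over the 4 complete kinds, its log2(CPM + 10) was 9.01 and 10.24 in the adult libraries and 6.36 and 8.15 in the juvenile libraries. The 2 libraries of 1 stage thus differed by more than a log2 unit at either stage. Juvenile replicate 2 was above juvenile replicate 1 in 14 of 14 kinds, by a median of 2.11, and adult replicate 1 was below adult replicate 2 in 5 of 6 kinds, with a median difference of -1.62. Across 6024 genes compared in the same way the median differences were 0.0 between the juvenile and 0.18 between the adult libraries. By kind the difference between stages was 2.95 in dermal fibroblasts (SE 0.97), 2.80 in meningeal mesenchyme (SE 0.85), 2.03 in mesenchyme (SE 0.92) and 1.83 in epithelial cells (SE 0.73), and none passed the test (adjusted p of 0.259, 0.276, 0.366 and 0.827, edgeR). With DESeq2 it passed in dermal fibroblasts (0.0192) and meningeal mesenchyme (0.0467). With no filter on low counts edgeR called it in dermal fibroblasts (0.000686), mesenchyme (0.00686) and meningeal mesenchyme (0.00947).

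*atf3* had a smaller library component, and its library call did not hold without adult replicate 2. Its mean over the 4 kinds was 8.49 and 8.83 in the adult and 7.62 and 7.98 in the juvenile libraries on the same scale, so that the stages did not overlap. An exact permutation test over the 4 libraries cannot go below 0.3333, the value reached by *atf3*, *junbb* and *hsp70l* (two-sided, differences of 0.86, 2.30 and 2.37). By kind, *atf3* was above in both adult libraries in mesenchyme, dermal fibroblasts and epithelial cells and overlapped in meningeal mesenchyme. Osteoblasts had 291 and 159.6 CPM in the adult libraries and 33.3 CPM in juvenile replicate 1, which rested on 13 UMIs.

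The 7 other genes overlapped between the stages when the kinds were weighted alike. The genes whose adult levels were all above the juvenile ones numbered 3 with all libraries. They numbered 9 without adult replicate 2 and 6 without juvenile replicate 2 or with kinds gated on 2 markers. No share of all genes is given for these counts, and a stage left with 1 library is separated more easily. The counts are therefore no result about these genes. The kind-balanced level of *fosab* was 13.03 and 11.99 in the adult and 12.70 and 12.66 in the juvenile libraries. The *jun* level was 11.58 and 11.00 in the adult and 11.45 and 11.55 in the juvenile libraries. Both juvenile libraries lay within the adult range for these 2 genes. *egr1* and *fosab* were instead higher in adult replicate 1 than in adult replicate 2 in 6 of 6 kinds, by medians of 1.46 and 1.16, where the median of all genes compared was 0.18. *socs3a* was lower in juvenile replicate 2 than in juvenile replicate 1 in 12 of 14 kinds, with a median difference of -0.85. The adult libraries also differed in depth and in median mitochondrial share, 1.34% and 0.74%, whose part in these differences was not tested.

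**Figure D4:**
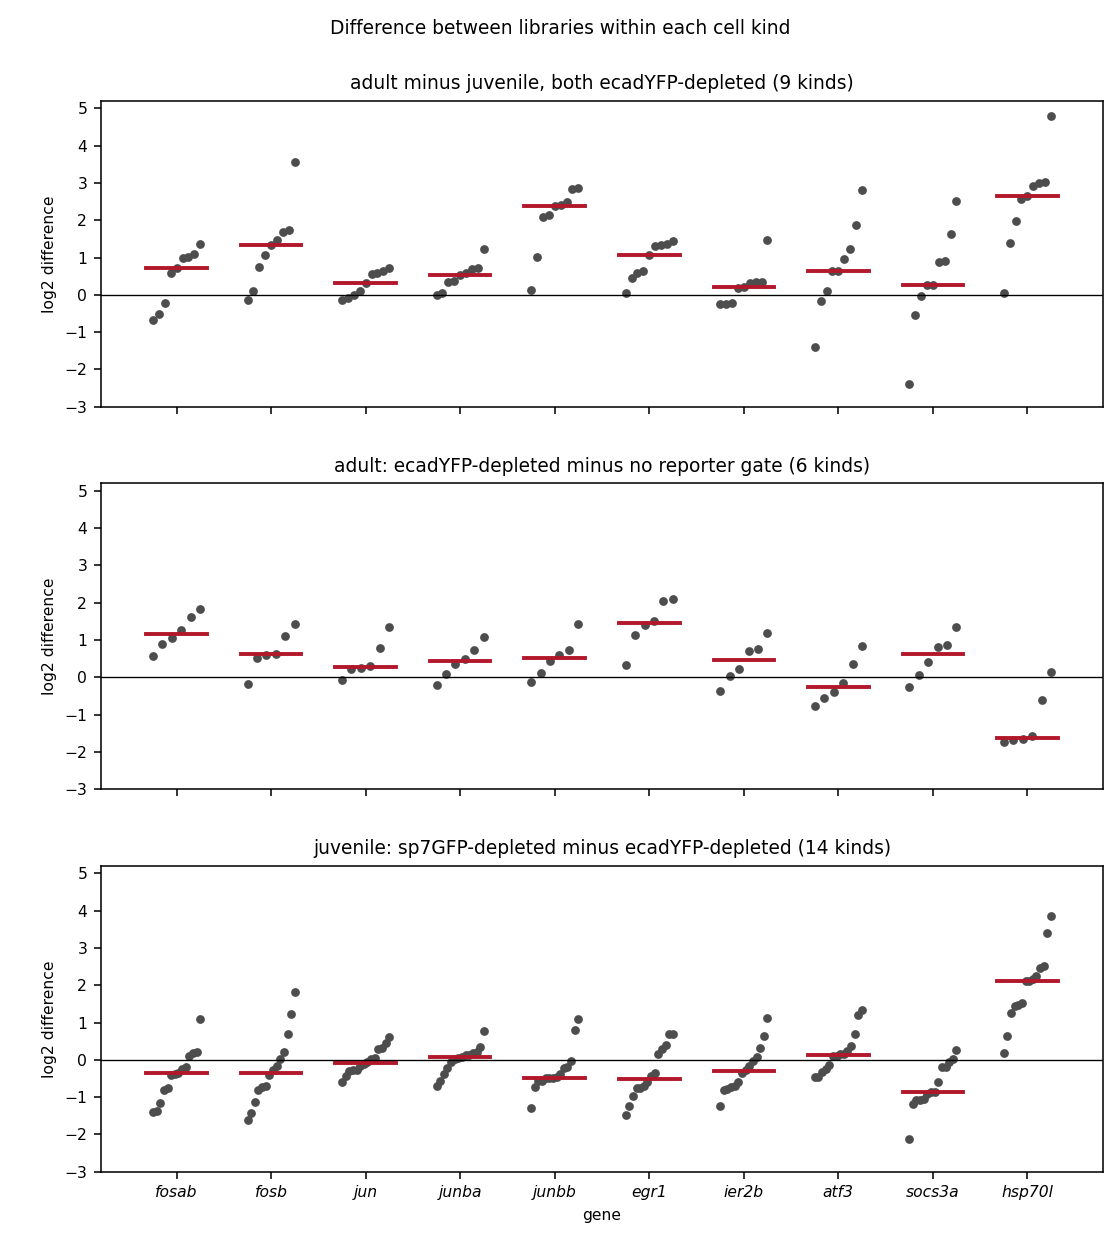
Differences between pairs of libraries in log2(CPM + 10), with 1 grey point per cell kind and the median in red, for adult minus juvenile within the YFP gate (9 kinds), the 2 adult libraries (6 kinds) and the 2 juvenile libraries (14 kinds). *hsp70l* is higher in juvenile replicate 2 in 14 of 14 kinds. Within the YFP gate *junbb*, *egr1* and *hsp70l* are each higher in the adult library in 9 of 9 kinds. Of these 9 kinds, photoreceptors had 0 UMIs of *junbb* in juvenile replicate 1, epithelial cells 4 and neutrophils 8.

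Over all complete kinds, 1 of 40 pairs of gene and kind passed the stage test, that of *junbb* in mesenchyme. An unadjusted p under 0.05 was reached by 13 pairs (11 higher and 2 lower in adults, edgeR). No share of all genes is given at that level, and the 4 kinds share the same libraries. No general adult excess is therefore read from these pairs. The 2 lower ones were *socs3a* in epithelial cells (difference -2.19, SE 0.86, adjusted p = 0.819) and *fosab* in meningeal mesenchyme (-0.72, SE 0.24, adjusted p = 0.293). *fosab* in meningeal mesenchyme had 9699 and 6504 CPM in the adult and 11324 and 13050 CPM in the juvenile libraries, and both adult libraries were lower there, as 20.2% of genes tested were. In mesenchyme, small differences depended on the scaling, since plain library totals moved the median of all genes from -0.02 to -0.36. *jun* had 0.20 with TMM and -0.14 with library totals, and *socs3a* had 0.26 and -0.08, so that neither has a direction. Counted by separation alone, both adult libraries were above both juvenile ones for 4 genes in mesenchyme, where 10.9% of genes tested were, for 5 in dermal fibroblasts (16.9%), for 3 in epithelial cells (19.1%) and for 3 in meningeal mesenchyme (26.3%). They were below for 1 gene in mesenchyme, where 37.4% of genes tested were, for 0 in dermal fibroblasts (24.0%), for 2 in epithelial cells (14.5%) and for 3 in meningeal mesenchyme (20.2%). Of the genes tested in the other kinds, 0.0131% in dermal fibroblasts and 0.105% in meningeal mesenchyme were called lower in adults and 0% were called higher, and in epithelial cells 0% were called either way. A test of whether the stage difference itself varied between the 4 kinds called 0 of 10 genes, where 0.386% of genes were called, and 1 gene, *socs3a*, had an unadjusted p under 0.05 (adjusted p = 0.977, edgeR).

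Some of the 10 genes had similar profiles over the 16 sums of complete kinds and libraries. These sums share libraries and free RNA, so the correlations are given as a description, without a background from other gene pairs. *fosab* correlated with *jun* (Pearson r 0.84), *egr1* (0.83) and *socs3a* (0.81), and *fosb* with *egr1* (0.87). *ier2b* and *atf3* correlated with each other (0.71) and negatively with *fosab* (-0.45 and -0.58). *junbb* correlated with *hsp70l* at 0.63, and about as well with *junba* (0.62), *fosb* (0.6) and *egr1* (0.58). *hsp70l* correlated with *atf3* at 0.59 and with *fosab* at -0.12. No separate group of *junbb* and *hsp70l* is read from these values.

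Within a kind and library, cells with 1 of the genes held another slightly more often than the product of the 2 shares gives, for most but not all pairs. In mesenchyme, the median ratio of observed to expected cells over the pairs of genes was 1.04 in both adult and both juvenile libraries. In dermal fibroblasts it was 1.06 and 1.1 in the adult and 1.12 and 1.12 in the juvenile libraries. These cells were thinned to 1000 UMIs. A gene found in nearly every cell, as *fosab* in 378 of 400 mesenchyme cells of adult replicate 1, leaves little room for a ratio above 1. No ratio is given for other pairs of genes. The excess is therefore no result about these genes, and the medians of the 2 kinds are not compared.

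Related genes were read from 5 further lists, each set against the 28.7% of all genes tested that differed between libraries and the 31.0% that differed between kinds. Of the heat shock genes, 14 of 18 tested differed between libraries and 8 of 18 between kinds, with a median library share of 54.3% and kind share of 16.2%, where the medians of all genes tested were 26.1% and 24.5%. Of the 4 with the most UMIs, the 2 inducible ones passed the library test. *hsp70.3*, a heat-inducible hsp70 copy, averaged 2538 and 3179 CPM over the 4 kinds in the adult and 580 and 1844 CPM in the juvenile libraries. *hsp90aa1.2*, an Hsp90 alpha gene, averaged 2976 and 1468 CPM in the adult and 369 and 1261 CPM in the juvenile libraries. The constitutive chaperone *hspa8* averaged 1731 and 1694 CPM in the adult and 2137 and 3041 CPM in the juvenile libraries. *hsp90ab1*, also constitutive, averaged 2875 and 2582 CPM in the adult and 4646 and 3631 CPM in the juvenile libraries. Neither passed the library test (adjusted p of 0.185 and 0.445, edgeR). The library shares did not follow this split. They were 46.4% for *hspa8* and 76.7% for *hsp90ab1*, against 73.2% for *hsp70.3* and 64% for *hsp90aa1.2*. Whether inducible and constitutive chaperones differ in this was not tested. The only list gene that passed the stage test was *hspa4a*, of the Hsp110 family, in mesenchyme (difference 3.07, SE 0.65, adjusted p = 0.0399, edgeR), a gene named after its value was seen.

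Of 8 AP-1 relatives tested, 4 differed between libraries (28.7% of all genes) and 3 between kinds (31.0%), the count for kind being near the background. *fosl1a*, a Fos relative, averaged 838 and 543 CPM in the adult and 213 and 402 CPM in the juvenile libraries (library adjusted p = 0.000688, edgeR), and *fosl2*, another, 286 and 166.5 CPM in the adult and 188 and 102 CPM in the juvenile libraries (0.0372). *jdp2b* (kind adjusted p = 0.0357, library 0.278, edgeR) and *atf4b* (0.746 and 0.162) did not differ by library at the threshold. Of 21 other immediate early genes, 9 differed between libraries (28.7% of all genes) and 8 between kinds (31.0%). Among them *btg2*, an antiproliferative gene, passed for kind (0.0344, edgeR) and *mcl1a*, a survival gene of the Bcl2 family, for library (0.0375), and *ier2a* and *btg1* passed for neither.

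Of 20 feedback genes, 11 differed between libraries (28.7% of all genes) and 8 between kinds (31.0%). *socs3b*, the paralog of *socs3a*, averaged 214.5 and 261 CPM in the adult and 502 and 824 CPM in the juvenile libraries. It was higher in both juvenile libraries (library adjusted p = 0.00135, kind 5.52e-05, edgeR). *socs3a* did not pass the library test (0.522, edgeR). The CPM of *socs3a* was lower in both adult libraries in epithelial cells, as for 14.5% of genes tested, and in meningeal mesenchyme, as for 20.2%. In mesenchyme its CPM was also lower in both, as for 37.4% of genes tested. The direction there depended on the scaling (0.26 with TMM, -0.08 with library totals), so none is read. In dermal fibroblasts the stages overlapped. *gadd45ba*, a stress-induced gene, passed both tests, *nfkbiaa*, an NF-kB inhibitor, the library test and its copy *nfkbiab* the kind test. Of 10 STAT3 and C/EBP genes, 5 differed between libraries (28.7% of all genes) and 2 between kinds (31.0%). *pim1*, a kinase gene induced by STAT signalling, averaged 732 and 655 CPM in the adult and 307 and 323 CPM in the juvenile libraries (library adjusted p = 0.000651, edgeR). *mcl1b* passed the library test (0.0024), *cebpd* both tests and *cebpb* neither.

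The genes most like the mean profile of the 10, among 2244 genes with at least 500 UMIs over the 16 sums, were an unnamed locus, XLOC_044191 (Pearson r 0.862), *mych* (0.843), *cpxm1a* (0.817) and *jdp2b* (0.815), followed by *sox11b*, *RALGDS*, *gpc1b*, *angptl4*, *zgc:162730* and *zgc:195173* (0.797 to 0.788). *mych*, a Myc family gene, averaged 487 and 346 CPM in the adult and 171 and 182 CPM in the juvenile libraries. *hsp70l* was nearest to its own copies, *hsp70.1* (0.926), *hsp70.2* (0.908) and *hsp70.3* (0.896), between which reads may be shared, and *atf3* to *trib3* (0.852), a stress-induced pseudokinase gene.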

How the data were processed

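The 10 genes and all lists were chosen with earlier results of these data known. The authors deposited unnormalized UMI counts of 4 libraries, by gene and barcode, made with Cell Ranger (3.0.0 in the protocol, 3.1.0 in the file header) at default settings on GRCz11. The gene annotation was not stated in the sources. The submitters' processing notes also name Seurat 4.1.1. UMI totals were 6986539 and 7873717 in the adult and 22012568 and 24854689 in the juvenile libraries. The labels give no replicate numbers, and those used follow accession order within a stage.

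Kept cells had over 200 genes, under 2500 genes and less than 25% of UMIs from the 6 mitochondrial genes, which left 5066 adult and 16245 juvenile cells. Doublets were not called. A cell entered a kind with at least 3 different markers detected and every other list at no more than 0.5 times as many. Red blood cells and pituitary cells needed a share of their UMIs on markers instead. Child lists (osteoblast, cartilage, dermal fibroblast, meningeal mesenchyme, vascular smooth muscle, among others) took precedence over their parent. Free RNA was not subtracted, and mixed cells may remain.

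Counts were summed per kind and library. edgeR 4.0.16 (R 4.3.3, limma 3.58.1) with TMM, filterByExpr and the quasi-likelihood test was fitted with library and kind terms, or for adult against juvenile in each kind, on all genes except markers, with Benjamini-Hochberg adjustment and a threshold of 0.05. SE is the fold change divided by the root of F. Shares of variation and kind-balanced levels used log2(CPM + 10). Intervals (95%) are exact Poisson or Clopper-Pearson and cover counting error only, and a count of 0 allows up to 3 counts. In the stage tests of a kind, with 2 libraries a stage, p-values are set against a spread between libraries that edgeR moderates across all genes. The p-values and SE of these tests therefore do not measure the spread of that gene alone. In mesenchyme the SE was 0.43 for *socs3a* and 0.44 for *fosab*, although their CPM differed in span. In the fits with library and kind terms the p-values are set against the remainder after both terms, moderated in the same way. There the kinds of a library stand in for its replicates, so the library p-values do not measure spread between replicate libraries. Genes named are the 10, the 4 of each list with the most UMIs and the 10 most alike. *hspa4a*, *hsp70.1*, *hsp70.2* and *trib3* were named after their values were seen. Scripts were tested on simulated data. Alternatives included DESeq2 1.42.0, other scaling, filters, gates and left-out libraries. Python 3.11.15, numpy 2.4.6, scipy 1.17.1 and pandas 2.3.3 were used. Promoter motifs were planned and not run, since no sequence table was at hand.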

Additional observations from a re-analysis of the deposited data

How the results depend on the processing

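Counts of genes called moved with the processing. So did the share of all genes called where it is known. Without the epithelial kind it was 11.2% for kind and 40.8% for library, against 31.0% and 28.7% with it. Apart from the fit over all kinds in 2 or more libraries, no such share is given for the other settings here and below. A moved count is therefore not read as a change in the 10 genes. For kind (8 of 10), 3 were called with at least 1000 UMIs per cell, 3 without the epithelial kind (chosen after seeing the data), 1 with at least 50 cells and 3 with no replicate block, while the other settings run on all 4 libraries gave 6 to 10. The first pair of settings leaves 3 kinds and at least 50 cells leaves 2 kinds, none of them epithelial. Leaving out 1 library gave 3 to 9, the lowest without adult replicate 2. The fit of kind with the library as a block is the one reported, and without the block *junbb*, *egr1*, *atf3*, *socs3a* and *hsp70l* lost the call. No paired analysis was possible because the labels give no replicate numbers for the stage comparison and only 1 gate occurs at both stages.

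For library (3 of 10), 5 were called with DESeq2, 5 with library totals, 5 with at least 1000 UMIs per cell, 5 without the epithelial kind, 7 with at least 2 markers, 7 with at least 50 cells and 7 over all kinds in 2 or more libraries (chosen after seeing the data). Leaving out 1 library gave 2 to 4, and without adult replicate 2 *atf3* lost the call (adjusted p = 0.267, edgeR). *junbb* and *hsp70l* kept the library call in every setting run. For stage (1 of 40 pairs), 5 pairs were called with DESeq2, 5 with no filter on low counts and 3 with at least 2 markers, and leaving out 1 library gave 0 to 5, with 0 without juvenile replicate 1 and 5 without juvenile replicate 2 or adult replicate 1, where 1 library stood for a stage and was assumed to vary like the others. The DESeq2 pairs were *junbb* in mesenchyme, dermal fibroblasts and meningeal mesenchyme and *hsp70l* in the last 2 of these. The pairs with no filter were *junbb* in mesenchyme and dermal fibroblasts and *hsp70l* in mesenchyme, dermal fibroblasts and meningeal mesenchyme. The cause of these moves was not tested.

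The number of genes whose kind-balanced level was higher in every adult library (3) was 6 with at least 2 markers. It was 3 to 9 when 1 library was left out, the highest without adult replicate 2. No share of all genes is given for these counts, so their change is no result about these genes. Library share exceeded kind share for 2 to 3 genes throughout. The mean share of mesenchyme cells with a UMI of *fosab*, 97.1%, was 93.2% and 85.5% in cells thinned to 1000 and 500 UMIs. The 1 stage difference called, that of *junbb* in mesenchyme, kept its sign in every setting run. The signs of the other pairs were not followed across all settings. Depth limits the epithelial and meningeal kinds most, which held 30 to 54 cells in all but 1 of their sums.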
